A study of Rattus norvegicus with 60 samples.

Results

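RNA of the injured and of the sham-operated spinal cord was compared in rats killed 12 h after medication, on 8 of the 60 arrays of the series. The 8 were taken by the injury, medication and time in their labels: 4 injured rats (SCI-EtOH and SCI-MP) against 4 sham rats (S-EtOH and S-MP), with 2 rats per group, 1 array per rat. All were female Long Evans rats of 8 or 9 weeks under Zoletil 50 and Rompun anaesthesia. Per the study's methods, injury was a contusion by the weight drop of a New York University Impactor after a laminectomy at T9 to T10. The methods call the sham rats non-injured, and neither methods nor labels say whether their cord was exposed in the same way. Methylprednisolone (MP), a synthetic glucocorticoid, was given intravenously at 30 mg/kg in 70% ethanol shortly after injury, and the EtOH rats received the same volume of 70% ethanol, so that no rat was free of ethanol. A 5-mm segment at the lesion was taken, which in an injured rat holds torn tissue, blood and whatever cells had entered it.

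A contusion kills neurons and glia within hours, tears vessels, and sets off an innate immune response in which chemokines draw neutrophils and then monocytes into the cord. Neurons signal through voltage-gated channels and vesicle release, spinal inhibition uses glycine and GABA, and astrocytes clear transmitter and potassium. Glucocorticoids act through a nuclear receptor that induces its own set of genes and restrains NF-kappaB and AP-1, the factors behind many inflammatory genes.

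The values were log2 values that the authors had centred for each probe set, on a reference that was not stated. A level of 0 therefore says nothing of abundance. Levels of different genes were therefore not compared, and whether the markers of spinal cord tissue were present could not be checked. Differences between rats in the same gene were kept, and every difference below is on the log2 scale, where a step of 1 is a 2-fold difference. The 27342 probe sets of the array were named by gene, and 15097 with a single symbol gave 14324 genes. Injury effects were injured minus sham, as the mean of the difference within EtOH rats and the difference within MP rats, tested with limma over all 14324 genes with Benjamini-Hochberg adjustment, and a gene was called when the adjusted p was under 0.05. The median SD within a pair of rats was 0.138 for SCI-EtOH, 0.0769 for SCI-MP, 0.0901 for S-MP and 0.0571 for S-EtOH. As the sample is bulk tissue, fewer cells of a type and less RNA per cell cannot be told apart.

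At 12 h the injury effect was called in 6173 of 14324 genes (43.1%), with 2531 higher (17.7%) and 3642 lower (25.4%) in the injured cord. The median effect over all genes was 0.017 and the median SE 0.10. The 4 injured arrays all lay above the 4 sham arrays in 1898 genes (13.3%) and all below them in 2727 genes (19%). An effect of 1 or more on the log2 scale was called in 925 genes (6.46%), of which 395 were higher (2.76%) and 530 lower (3.7%).

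The largest rise was that of Cxcl2, a chemokine that attracts neutrophils. Its values were -0.77 and -0.66 in S-EtOH, -1.15 and -0.81 in S-MP, 4.53 and 4.26 in SCI-EtOH, and 3.55 and 3.05 in SCI-MP. Injury raised it by 4.70 ± 0.39 (SE), or 26-fold higher (adjusted p = 1e-11), and no injured rat came near a sham rat. Il1r2, a decoy receptor that binds interleukin 1 without signalling, stood at -0.21 and -0.13 in S-EtOH, -0.66 and -0.63 in S-MP, 4.45 and 3.39 in SCI-EtOH, and 3.65 and 3.22 in SCI-MP. The effect of 4.09 ± 0.33 (SE), or 17-fold higher (adjusted p = 6.1e-12) was the second in size. Cxcr2, the receptor on neutrophils for Cxcl2 and Cxcl1, was at -0.045 and 0.21 in S-EtOH, -0.44 and -0.48 in S-MP, 3.97 and 2.99 in SCI-EtOH, and 4.06 and 3.61 in SCI-MP. It rose by 3.85 ± 0.27 (SE), or 14.4-fold higher (adjusted p = 7.3e-13), with a wide gap between the groups. Il6, the cytokine that signals through gp130 and STAT3, was measured at 0.021 and -0.053 in S-EtOH, -1.10 and -0.90 in S-MP, 2.91 and 2.39 in SCI-EtOH, and 3.64 and 3.54 in SCI-MP. Its rise was 3.63 ± 0.38 (SE), or 12.4-fold higher (adjusted p = 1.1e-09), and all 4 injured rats were above all 4 sham rats. Tfpi2, an inhibitor of serine proteases, was at -0.51 and -0.53 in S-EtOH, -2.28 and -2.13 in S-MP, 2.65 and 1.82 in SCI-EtOH, and 2.59 and 2.34 in SCI-MP. It rose by 3.71 ± 0.42 (SE), or 13.1-fold higher (adjusted p = 6.1e-09), and its sham rats were split by medication, with both S-MP rats below both S-EtOH rats.

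The other leading rises were Gprc5a (3.89), Ccl3 (3.79), Clec4d (3.61), Pi15 (3.33), Cxcl1 (3.16), Nos2 (3.12), Lif (3.10), Slpi (3.04), Anxa1 (3.04) and Dusp5 (3.03). Gprc5a is an orphan receptor, Ccl3 a chemokine for monocytes, Clec4d a lectin receptor of myeloid cells and Lif a cytokine of the IL-6 family. Nos2 is the inducible nitric oxide synthase, Slpi an inhibitor of neutrophil elastase, Anxa1 a glucocorticoid-regulated inhibitor of inflammation and Dusp5 a phosphatase of MAP kinases. The 4 injured rats were above the 4 sham rats in each of them. Pi15, a secreted protein named as a peptidase inhibitor, stood out by the split within its injured rats, with 2.29 and 1.97 in SCI-EtOH against 4.04 and 3.93 in SCI-MP. Nos2 had the opposite split, with 4.00 and 3.15 in SCI-EtOH against 2.19 and 2.14 in SCI-MP.

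**Figure D1:**
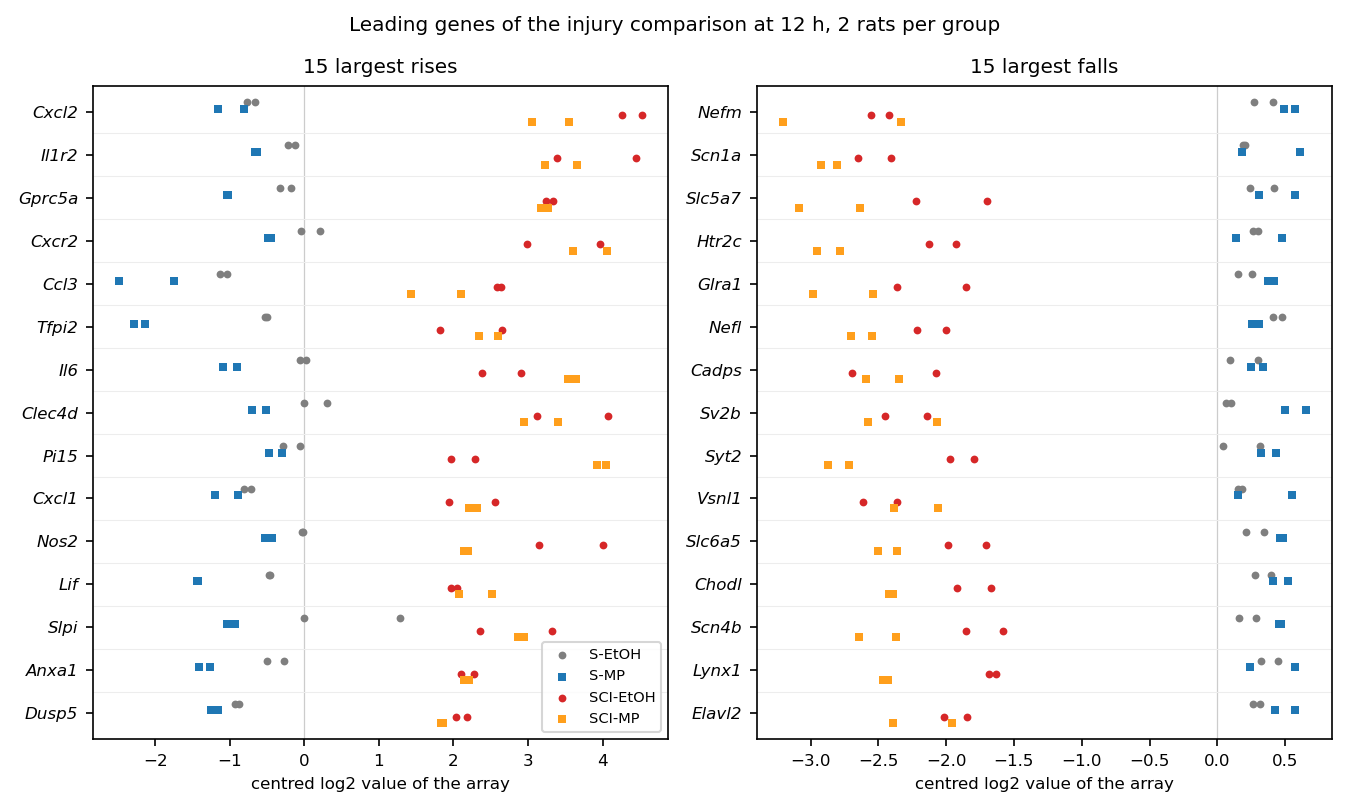
Log2 values, centred per probe set by the authors, of the genes with the largest rises and falls at 12 h in each of the 8 rats, 1 point per rat, with the group marked by colour and symbol. The injured rats lie on 1 side of the sham rats in every gene shown, from Cxcl2 with an effect of 4.70 to Nefm with -3.07.

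The stretch before the start of a gene is where factors such as NF-kappaB act, and it is shown for 4 of the leading rises. These 4 were picked as the most risen of the leading genes whose promoter held at least 1 of the motifs given below. Of the 15 leading rises, 8 had a promoter in the RefSeq table used here (build GRCr8), and Il1r2, Gprc5a, Ccl3, Pi15, Nos2, Lif and Slpi did not. Each run holds the 250 bases before the annotated start, 5′ to 3′ on the gene's strand, which is the minus strand for all 4. Cxcl2 is at chr14:17467256-17467505, Cxcl1 at chr14:17479322-17479571, Il6 at chr4:5894576-5894825 and Tfpi2 at chr4:32941277-32941526. Capitals mark matches on either strand to an NF-kappaB-like motif (GGGA, then any 4 bases, then CC) and to TGANTCA, an AP-1 motif.
Cxcl2: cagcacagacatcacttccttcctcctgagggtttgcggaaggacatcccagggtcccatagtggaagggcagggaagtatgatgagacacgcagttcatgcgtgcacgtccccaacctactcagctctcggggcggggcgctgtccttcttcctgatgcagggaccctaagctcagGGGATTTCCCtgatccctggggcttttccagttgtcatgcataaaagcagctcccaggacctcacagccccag
Cxcl1: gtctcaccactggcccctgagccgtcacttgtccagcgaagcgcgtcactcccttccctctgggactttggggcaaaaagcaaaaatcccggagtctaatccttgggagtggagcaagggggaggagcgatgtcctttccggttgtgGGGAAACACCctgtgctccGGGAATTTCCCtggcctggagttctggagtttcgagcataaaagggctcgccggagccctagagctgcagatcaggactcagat
Il6: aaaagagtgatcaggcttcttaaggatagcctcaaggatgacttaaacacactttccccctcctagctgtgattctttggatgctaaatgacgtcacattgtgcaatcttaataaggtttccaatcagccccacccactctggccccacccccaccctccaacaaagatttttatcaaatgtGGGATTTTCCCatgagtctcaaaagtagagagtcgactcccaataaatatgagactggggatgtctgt
Tfpi2: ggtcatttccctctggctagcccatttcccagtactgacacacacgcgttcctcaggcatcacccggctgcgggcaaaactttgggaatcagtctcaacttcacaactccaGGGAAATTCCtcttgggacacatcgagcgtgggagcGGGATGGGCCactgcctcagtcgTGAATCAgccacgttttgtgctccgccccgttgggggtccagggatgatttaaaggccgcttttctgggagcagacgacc
The NF-kappaB-like motif lay from 73 to 64 bases before the start in Cxcl2 and, with a second match on the other strand shifted by 1 base, from 68 to 58 in Il6. Cxcl1 held it from 103 to 94 and, again as overlapping matches, from 84 to 74. Tfpi2 held it from 139 to 130 and from 103 to 94, and held the AP-1 motif from 80 to 74. Anxa1 and Dusp5 held the NF-kappaB-like motif too, and Cxcr2 and Clec4d held neither. The motif was thus in 6 of 8 leading promoters (75%), against 5498 of 33469 promoters in the table (16.4%) and 2418 of 12381 promoters of measured genes (19.5%). The AP-1 motif was in 1 of 8 (12.5%), against 2122 of all promoters (6.34%) and 684 of those of measured genes (5.52%). A match is a run of letters and not a bound site.

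In each of 4 lists of inflammatory signalling, most members rose. Of 20 measured interleukins, TNF and other cytokines with their receptors, 14 rose and 0 fell, with a median of 0.84, which is 70% against the 17.7% of all genes that rose. The ligands included Il1b, a fever-inducing cytokine of myeloid cells (2.37), its soluble antagonist Il1rn (2.47), the granulocyte growth factor Csf3 (1.62) and Tnf (0.87). Il1b was at -0.45 and -0.39 in S-EtOH, -0.73 and -0.74 in S-MP, 2.53 and 2.26 in SCI-EtOH, and 1.23 and 1.15 in SCI-MP, above sham in all 4 injured rats and lower in both SCI-MP rats than in both SCI-EtOH rats. All 8 genes on the list of neutrophil-attracting CXC chemokines and Cxcr2 rose, with a median of 1.96. Cxcl6 (2.21) was among them, as was Pf4 (1.71), a platelet chemokine that is not a typical neutrophil attractant. Of 15 CC chemokines and receptors 9 rose and 3 fell. The rises included Ccr1 (2.77), Ccl6 (2.55), Ccl4 (2.52) and Ccl2 (2.47), which draw or mark monocytes, and the falls were Cx3cl1 (-0.91), Cx3cr1 (-0.74) and Ccl12 (-0.51), the first of these a neuronal chemokine and the next its microglial receptor. In the IL-6 family and gp130-STAT3 list 12 of 17 rose and 2 fell, with a median of 1.28. The feedback inhibitor Socs3 (2.14), the kinase Pim1 (1.90) and the oncostatin M receptor Osmr (1.69) rose, and the receptor subunits Lifr and Cntfr fell by 0.99 and 0.67.

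Of 10 NF-kappaB subunits and feedback inhibitors 9 rose, led by Nfkbia (2.19), Nfkbiz (1.74) and Birc3 (1.47), of which Nfkbia encodes the inhibitor that holds NF-kappaB in the cytosol. Among 17 innate receptors and adaptors 10 rose and 1 fell, with Trem1, an amplifier of myeloid activation, at 2.82 and Cd14, the co-receptor for endotoxin, at 1.50. Tlr2 rose by 0.77, while Tlr4 was at -0.006 and was not called (adjusted p = 0.98 in limma). Adhesion genes followed, with 10 of 13 higher and 0 lower, among them the integrin chains Itga5 (2.18) and Itgb2 (1.50) and the endothelial ligand Icam1 (1.27). Enzymes of prostaglandin, leukotriene and nitric oxide synthesis gave 12 higher and 2 lower of 20. Cyclooxygenase 2, Ptgs2, rose by 2.63, the prostaglandin E synthase Ptges by 2.57, and Alox5ap, which serves leukotriene synthesis, by 1.83. The neuronal nitric oxide synthase Nos1 fell by 0.67. Of 11 complement genes 7 rose, led by the complement inhibitor Cd55 (2.76), but only 4 did without S-EtOH rat 1.

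Immediate early factors rose nearly whole at 12 h, and stress genes differed by list. Of 20 factors of the AP-1, EGR and NR4A families 19 rose and 0 fell, with a median of 1.44, and all 4 injured rats were above all sham rats in 19. Atf3, a stress factor and a marker of injured neurons, was at -0.43 and -0.88 in S-EtOH, -1.23 and -1.47 in S-MP, 2.37 and 2.34 in SCI-EtOH, and 1.69 and 1.14 in SCI-MP, a rise of 2.89 ± 0.18 (SE), or 7.4-fold higher (adjusted p = 1.4e-13). Egr1, Fos, Junb and Klf4 rose by 2.87, 2.21, 2.14 and 2.09. MAP kinase phosphatases, which switch off the kinases upstream of AP-1, gave 7 higher of 9, led by Dusp5 (3.03), Dusp1 (2.70) and Dusp6 (1.68). In the p53, GADD45 and BCL2 list 14 of 20 rose and 3 fell, with the cell cycle inhibitor Cdkn1a at 1.78, the death-promoting Pmaip1 at 1.60 and the survival factor Bcl2l1 at 0.65. The TNF receptor Tnfrsf1b (2.28) led the death receptors and caspases, of which 9 of 19 rose and 2 fell. Hmox1, which breaks down haem, was measured at -0.53 and -0.061 in S-EtOH, -1.17 and -0.74 in S-MP, 2.08 and 2.03 in SCI-EtOH, and 2.13 and 2.17 in SCI-MP. It rose by 2.72 ± 0.27 (SE), or 6.61-fold higher (adjusted p = 2.9e-10) and led 8 rises among 21 antioxidant and haem-handling genes, of which 0 fell. Other stress lists went both ways, beside 17.7% of all genes higher and 25.4% lower. Heat shock proteins and chaperonins gave 4 higher and 7 lower of 22 (18.2% and 31.8%), near those shares. Metallothioneins and zinc transporters gave 3 higher and 5 lower of 13 (23.1% and 38.5%). Genes of ER stress gave 11 higher and 2 lower of 25 (44% and 8%). Spinal neuropeptides and their receptors gave 5 higher and 7 lower of 21 (23.8% and 33.3%), beside the same 17.7% and 25.4% of all genes. The rises included Npy, Gal, Trh and Adcyap1, which injured neurons can switch on, at 1.78, 1.63, 1.63 and 1.31. The falls included the tachykinin receptor Tacr1 (-1.03) and the enkephalin precursor Penk (-0.91).

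Markers of cells that enter the cord from blood, and of tissues beside it, were counted next. Of 23 neutrophil markers 19 rose and 0 fell, with a median of 0.89, and 17 had all injured rats above all sham rats. S100a9, a calcium-binding protein abundant in neutrophils, was at 0.028 and 0.022 in S-EtOH, -0.31 and -0.41 in S-MP, 2.95 and 2.54 in SCI-EtOH, and 2.82 and 2.90 in SCI-MP, a rise of 2.97 ± 0.21 (SE), or 7.84-fold higher (adjusted p = 7.3e-13). Prok2 (2.24), Mmp8 (2.12) and Csf3r (1.63) rose as well, whereas the granule genes Mpo (0.17), Ltf (0.11) and Ngp (0.20) were not called. Monocyte and macrophage markers gave 10 higher of 17, led by the urokinase receptor Plaur (2.73) and arginase Arg1 (1.75), with Adgre1, which marks mature macrophages, at -0.082 and not called. Of 15 homeostatic microglia markers 3 rose (20%, against 17.7% of all genes) and 2 fell (13.3%, against 25.4%). Of 16 lymphocyte markers 5 rose (31.25%, against 17.7%), by at most 0.43. All 9 erythrocyte and platelet markers rose, with a median of 1.10, including Alas2, which starts haem synthesis in red cells (2.54), and the beta-globin Hbb (1.94). The median of these 9 per rat was -0.046 and -0.16 in S-EtOH, -0.75 and -0.58 in S-MP, 0.50 and 0.91 in SCI-EtOH, and 0.63 and 0.32 in SCI-MP. These blood markers were higher in injured than in sham rats, as were the other rises given here. The part of blood in those rises was not tested.

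Of 16 meningeal and fibroblast markers 8 rose and 1 fell, with fibronectin Fn1 at 1.43 and the collagen Col1a2 at 1.01, and 5 rose without S-MP rat 2 or without SCI-MP rat 2. Schwann cell and nerve root markers gave 6 higher of 10, with the neurotrophin receptor Ngfr at 0.73 and the peripheral myelin gene Pmp22 at 0.65. Of 12 skeletal muscle markers 0 rose and 1 fell (8.33%). Of 9 ependymal markers 0 rose and 2 fell (22.2%). Over all genes 17.7% rose and 25.4% fell. The part of meninges and roots in the injury effects was not tested. Endothelial markers gave 10 higher and 1 lower of 18, among them Cdh5 (0.79) and Flt1 (0.78), the junction protein and a receptor for vascular growth factor. Vascular peptides and growth factors gave 12 higher and 2 lower of 16, with the vasodilator Adm at 2.25 and the endothelial proteoglycan Esm1 at 2.12.

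In the lists of extracellular proteolysis, both enzymes and inhibitors rose. In the plasminogen and coagulation list 12 of 16 rose and 1 fell, with a median of 1.18. Both plasminogen activators, Plau (1.71) and Plat (1.65), rose, as did the anticoagulant receptors Thbd (2.08) and Procr (1.49) and tissue factor F3 (0.91), which starts coagulation. Of 19 matrix metalloproteinases, ADAMTS proteases and TIMPs 13 rose and 3 fell, including Adamts9 (2.01), Adamts1 (1.78), Mmp13 (1.70) and Mmp3 (1.69) and the inhibitors Timp3 (1.68) and Timp1 (1.40). The matrix list was split, with 8 of 18 higher (44.4%) and 6 lower (33.3%), against 17.7% and 25.4% of all genes. The hyaluronan synthase Has1 rose by 2.19 and the syndecan Sdc1 by 2.08, while parts of the perineuronal matrix fell, among them Cspg5 (-1.42), Hapln4 (-1.37) and Hapln1 (-1.28).

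The falls were led by Nefm, the medium neurofilament chain of large axons. Nefm was at 0.27 and 0.41 in S-EtOH, 0.49 and 0.57 in S-MP, -2.42 and -2.56 in SCI-EtOH, and -2.33 and -3.20 in SCI-MP. Its fall was -3.07 ± 0.30 (SE), or 8.38-fold lower (adjusted p = 3.3e-10), with no overlap between injured and sham rats. Scn1a, a voltage-gated sodium channel, was at 0.19 and 0.21 in S-EtOH, 0.61 and 0.18 in S-MP, -2.40 and -2.65 in SCI-EtOH, and -2.92 and -2.80 in SCI-MP, a difference of -2.99 ± 0.22 (SE), or 7.95-fold lower (adjusted p = 1.2e-12). Slc5a7 takes up choline in cholinergic terminals and was at 0.24 and 0.41 in S-EtOH, 0.57 and 0.30 in S-MP, -1.70 and -2.22 in SCI-EtOH, and -3.09 and -2.64 in SCI-MP. The difference was -2.79 ± 0.27 (SE), or 6.92-fold lower (adjusted p = 2e-10), and both SCI-MP rats lay below both SCI-EtOH rats. Glra1, the adult glycine receptor subunit, was at 0.26 and 0.15 in S-EtOH, 0.42 and 0.37 in S-MP, -1.85 and -2.37 in SCI-EtOH, and -2.98 and -2.54 in SCI-MP, a difference of -2.73 ± 0.20 (SE), or 6.65-fold lower (adjusted p = 1.3e-12). The other leading falls were Htr2c (-2.74), Nefl (-2.73), Cadps (-2.67), Sv2b (-2.63), Syt2 (-2.61), Vsnl1 (-2.61), Slc6a5 (-2.51), Chodl (-2.50), Scn4b (-2.45), Lynx1 (-2.45) and Elavl2 (-2.45). They hold a serotonin receptor (Htr2c), a further neurofilament chain (Nefl), proteins of vesicle release (Cadps, Sv2b, Syt2) and a neuronal calcium sensor (Vsnl1). They also hold the glycine transporter of inhibitory neurons (Slc6a5), a motor neuron marker (Chodl), a sodium channel subunit (Scn4b), a modulator of nicotinic receptors (Lynx1) and a neuronal RNA-binding protein (Elavl2).

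Lists of neuron structure and transmission held mainly falls, while other neuron lists were mixed. All 19 neurofilament and neuron structural genes fell, with a median of -1.62, which is 100% against the 25.4% of all genes that fell, and 17 had all injured rats below all sham rats. They ran from the microtubule gene Mapt (-0.30) to Nefm, and Thy1 and Stmn2, a surface protein and a growth-associated protein of neurons, fell by 2.20 and 2.15. Of 26 synaptic vesicle genes 25 fell, with a median of -1.46, among them Cplx1 (-2.33), Syp (-2.26) and Nsf (-2.10). All 18 glycine and GABA genes fell, with a median of -1.38. The receptor subunits Glrb (-2.15), Gabra3 (-2.05) and Gabrb2 (-1.78), the vesicular transporter Slc32a1 (-1.91) and the GABA-making enzymes Gad1 (-1.37) and Gad2 (-1.28) were among them. Of 20 glutamate receptors and transporters 16 fell, with a median of -0.97, led by the vesicular transporter Slc17a6 (-2.08) and the receptor subunits Gria3 (-1.85) and Grin1 (-1.81). The cholinergic motor neuron list gave 8 falls of 12, with the vesicular transporter Slc18a3 at -1.95 and the muscarinic receptor Chrm2 at -2.05. Its 1 rise, Mmp9 (1.29), is a protease that the neutrophil list also holds. Of 15 axon injury and regeneration genes 8 rose (53.3%, against 17.7% of all genes) and 4 fell (26.7%, against 25.4%). Stmn2 was among the falls and Atf3 among the rises.

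Ion channels followed, with 7 of 8 sodium channel genes, 16 of 18 potassium channel genes and 20 of 24 calcium channel and calcium-binding genes lower, and 0 higher. The medians were -1.26, -0.82 and -0.83. Scn8a, the main sodium channel of nodes of Ranvier, fell by 2.25, and the potassium channel gene Kcnc1, which serves fast firing, by 1.87. The 1 sodium channel gene that was not called, Scn7a (-0.092), is a glial and Schwann cell form. Slc12a5, the neuronal chloride exporter on which inhibition by glycine and GABA depends, fell by 2.09, and Atp1b1, a sodium pump subunit, by 1.98. Of 14 serotonin receptors 7 fell (50%, against 25.4% of all genes) and 1 rose (7.14%, against 17.7%). Among them were Htr2c at -2.74, Htr1b at -1.23 and Htr3b at 0.24. Of 18 neurotrophic factors and receptors 2 rose (11.1%, against 17.7% of all genes) and 6 fell (33.3%, against 25.4%). The neurotrophin receptors Ntrk2 and Ntrk3 fell by 0.91 and 0.96, Fgf9, a growth factor of neurons, fell by 2.26, and Gdnf, a survival factor for motor neurons, rose by 0.91.

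Astrocyte genes divided by role. All 14 homeostatic astrocyte genes fell, with a median of -0.99. Slc7a10, an amino acid transporter of astrocytes, was at -0.016 and 0.089 in S-EtOH, 0.30 and 0.50 in S-MP, -0.98 and -1.40 in SCI-EtOH, and -2.07 and -1.76 in SCI-MP, a difference of -1.77 ± 0.20 (SE), or 3.41-fold lower (adjusted p = 5.4e-09). The GABA transporter Slc6a11 (-1.43), the gap junction gene Gjb6 (-1.43) and the glutamate transporter Slc1a2 (-1.35) were next, and the water channel Aqp4 fell by 0.57. Of 22 reactive astrocyte genes 16 rose and 1 fell, with a median of 1.04, among them Emp1 (2.65), Tgm1 (2.01), Nes (1.90) and Steap4 (1.50). The 1 fall was Gfap, the filament gene that defines astrocytes, at -0.32 (adjusted p = 0.018 in limma), and the call was lost without S-EtOH rat 1, S-MP rat 1 or SCI-MP rat 2. Of 19 myelin genes 5 fell (26.3%, against 25.4% of all genes) and 1 rose (5.26%, against 17.7%), with a median of -0.23, and 1 fell without SCI-EtOH rat 2. Of 13 precursor genes 8 fell, led by Gpr17 (-1.12) and Ptprz1 (-0.98), and 4 fell without S-EtOH rat 1. Mbp, the myelin gene that rose (0.36), is also in the Schwann cell list.

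Respiratory chain genes fell and ribosomal genes rose, while glycolysis was split. Of 30 respiratory chain and ATP synthase genes 26 fell and 1 rose, with a median of -0.58, led by Ndufs1 of complex I (-1.28) and Sdha of complex II (-0.94). Glycolysis had 8 of 26 higher (30.8%) and 12 lower (46.2%), against 17.7% and 25.4% of all genes. The lactate exporter Slc16a3, hexokinase Hk2, Pfkfb4 and lactate dehydrogenase Ldha rose by 2.39, 2.13, 1.52 and 1.39. The neuronal enolase Eno2 and the phosphofructokinases Pfkm and Pfkp fell by 1.62, 1.28 and 1.04. Of 30 cytosolic ribosomal protein genes 23 rose and 0 fell, among them Rps18 (0.81) and Rps2 (0.28), and 12 of 16 ribosome biogenesis factors rose, among them Wdr43 (0.98) and Rrp9 (0.85). Ribosomal protein genes have many near-identical pseudogenes, which a probe can also detect. Of 23 proteasome subunits 10 fell and 1 rose, and 6 fell without S-MP rat 2. Of 15 sterol synthesis genes 7 fell, with Nsdhl at -0.73.

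Of 23 genes on the list of targets that glucocorticoids induce, 16 rose after injury over both medications and 3 fell, with a median of 0.65. In all 16, the 4 injured rats were above the 4 sham rats. Besides Il1r2, Dusp1 and Nfkbia, which are named above, they included Errfi1 (2.04), Cebpb (1.62), the clock gene Per1 (1.17) and the receptor chaperone Fkbp5 (0.97). In S-MP against S-EtOH, the comparison of MP with vehicle in uninjured rats, limma called 0 of these 23 genes at 12 h, against 0.559% of all genes, a share at which 0 of 23 is no result about the list. At an unadjusted p under 0.05, 1 was higher and 2 were lower. The median difference was -0.26 in sham rats and 0.10 between SCI-MP and SCI-EtOH rats.

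**Figure D2:**
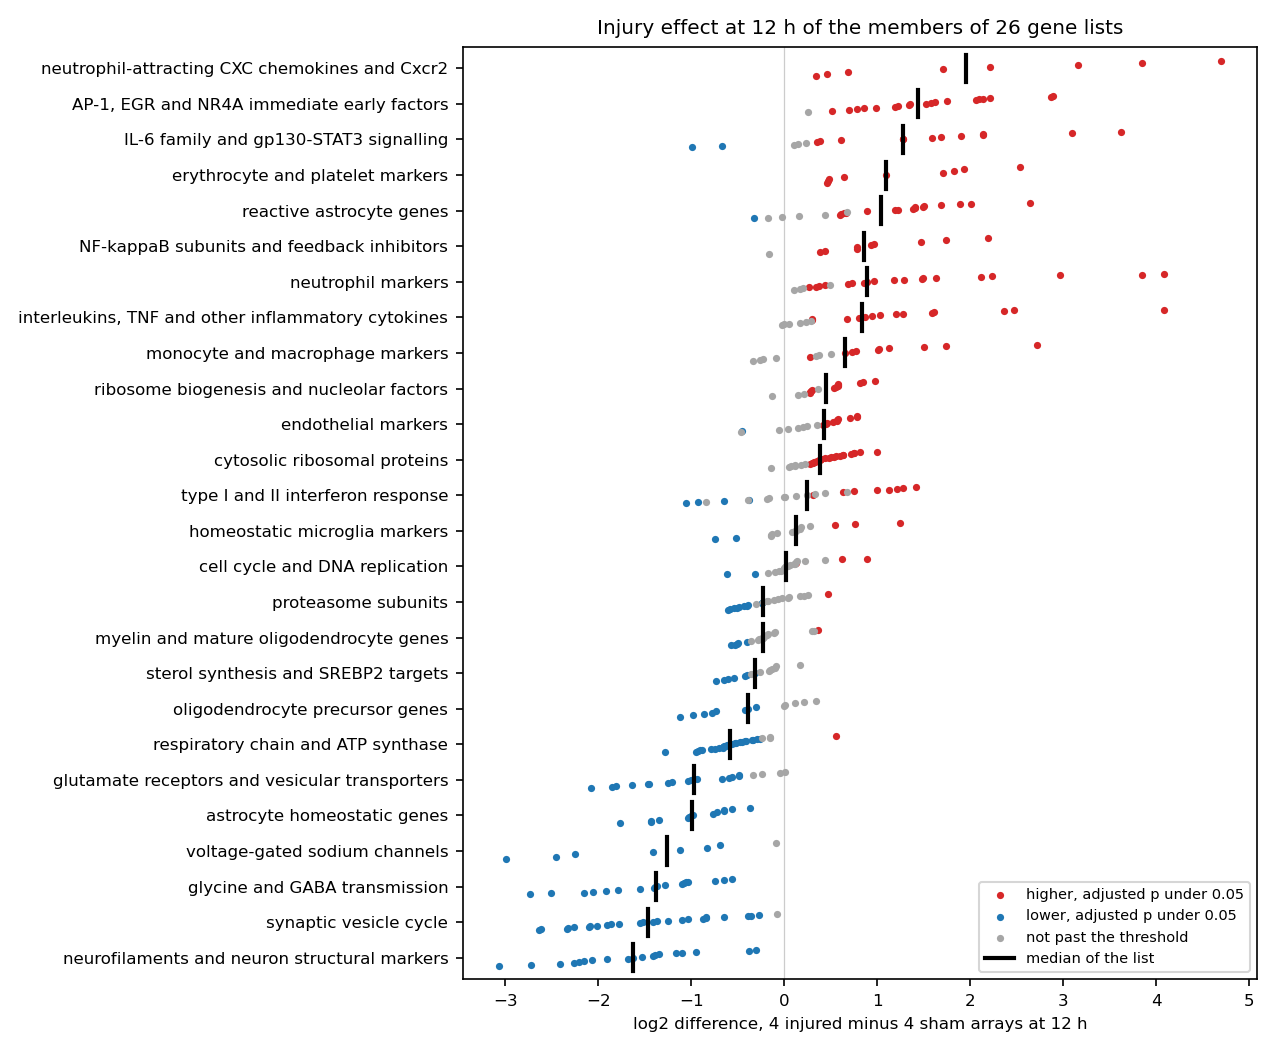
Injury effect at 12 h (log2, injured minus sham, both medications) of each measured member of 26 gene lists, 1 point per gene, red or blue where it was called higher or lower and grey where it was not, with the list median as a black bar. Lists of neurons lie below 0, with a median of -1.62 for neuron structural genes, and lists of immune and immediate early genes lie above it, with 1.96 for the neutrophil-attracting chemokines.

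The injury effect was then taken within each medication. The EtOH and MP comparisons share no arrays. In EtOH rats 4522 genes were called (31.6%), with 2048 higher (14.3%) and 2474 lower (17.3%). In MP rats 4887 were called (34.1%), with 1783 higher (12.4%) and 3104 lower (21.7%). Both called 2395 genes in the same direction and 73 in opposite directions. The EtOH count was the less stable, since it was 2613 without S-EtOH rat 1, 3007 without S-EtOH rat 2 and 2620 without SCI-EtOH rat 2. The difference of the effects, MP minus EtOH, was called in 1103 genes (7.7%), with 453 higher (3.16%) and 650 lower (4.54%). Of these, 646 also had a called injury effect over both medications. Among those higher after injury, the rise was larger with MP in 174 and smaller in 96, and among those lower, the fall was larger with MP in 304 and smaller in 72. The count of 1103 was 403 without S-EtOH rat 1, 433 without SCI-MP rat 2, 517 without S-EtOH rat 2, 547 without S-MP rat 1, 651 without SCI-EtOH rat 2 and 706 without SCI-MP rat 1.

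**Figure D3:**
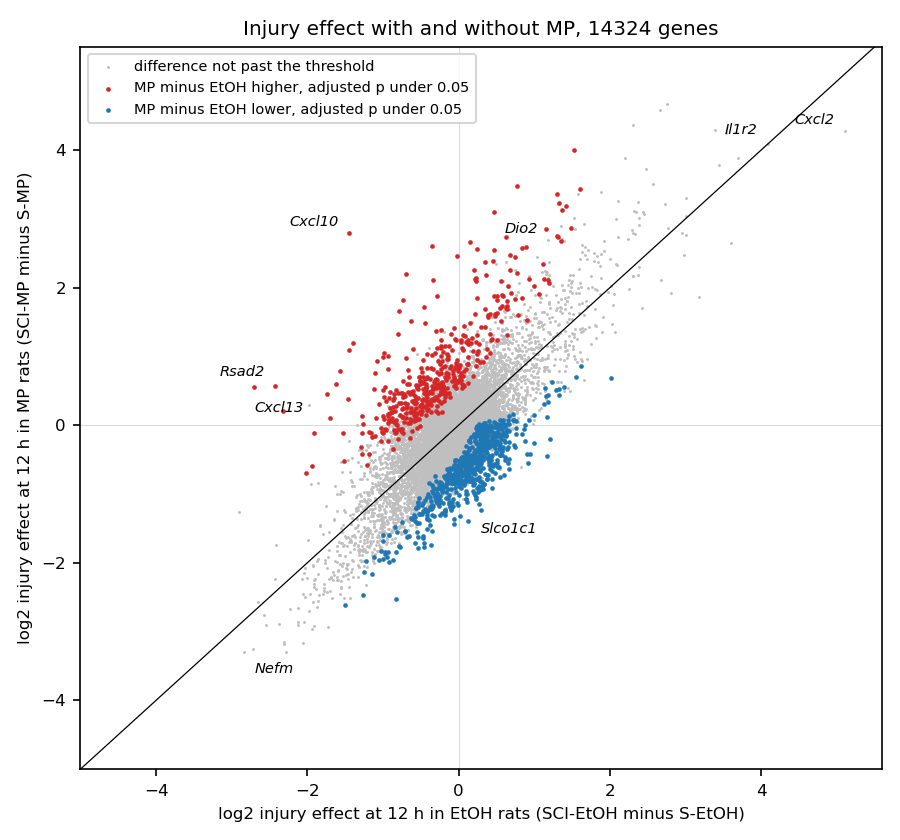
Injury effect at 12 h in EtOH rats (x axis, log2) against that in MP rats (y axis, log2), 1 point per gene, with the diagonal of equal effects. Cxcl10 and Rsad2 lie at -1.45 and -2.42 in EtOH rats against 2.80 and 0.56 in MP rats.

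Over the 395 genes with rises of 1 or more, the median effect was 1.27 in EtOH rats and 1.72 in MP rats, and over the 530 with falls of 1 or more it was -1.17 and -1.53. These genes were chosen on the same arrays, so the figures describe them and test nothing. The injured groups were alike in the rises, with a median value of 1.15 in SCI-EtOH and 1.19 in SCI-MP, while the sham groups stood at -0.096 in S-EtOH and -0.47 in S-MP. Both S-MP rats lay below both S-EtOH rats in 314 of the 395 (79.5%), against 20.1% of all genes. For the falls the medians of the sham groups were 0.14 (S-EtOH) and 0.32 (S-MP), those of the injured groups -0.99 (SCI-EtOH) and -1.20 (SCI-MP), and both S-MP rats lay above both S-EtOH rats in 293 of 530 (55.3%), against 27.5% of all genes. By test, MP against EtOH in sham rats at 12 h called 80 genes (0.559%), of which 64 were lower with MP (0.447%). That comparison uses the same sham arrays as the injury effects. Slpi and Ccl3 illustrate the sham rats, with Slpi at -0.0081 and 1.28 in S-EtOH and -0.92 and -1.04 in S-MP, and Ccl3 at -1.04 and -1.13 in S-EtOH and -2.48 and -1.75 in S-MP.

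The widest differences between the medications were in interferon-response genes, which defend against viruses. Cxcl10, a chemokine induced by interferons, was at 3.15 and 1.77 in S-EtOH, -0.49 and 0.11 in S-MP, 1.56 and 0.47 in SCI-EtOH, and 2.90 and 2.33 in SCI-MP. Injury went with -1.45 in EtOH rats and 2.80 in MP rats, a difference of 4.25 ± 0.69 (SE; adjusted p = 0.00038), and over both medications it was not called (adjusted p = 0.11). Rsad2, an antiviral enzyme, was at 3.55 and 2.50 in S-EtOH, 0.083 and -0.066 in S-MP, 0.39 and 0.82 in SCI-EtOH, and 0.87 and 0.27 in SCI-MP. Its effect was -2.42 in EtOH rats and 0.56 in MP rats, a difference of 2.99 ± 0.67 (SE; adjusted p = 0.0061), whose call was lost without S-EtOH rat 1. Only the S-EtOH rats were high in this gene. Cxcl13, a chemokine for B cells, had the same shape, with 2.23 and 2.72 in S-EtOH, -0.18 and 0.0047 in S-MP, -0.09 and -0.37 in SCI-EtOH, and 0.47 and 0.47 in SCI-MP. The difference was 3.26 ± 0.42 (SE; adjusted p = 3.3e-05). Cxcl11, Ifit3 and Herc6 differed by 2.95, 2.89 and 2.59, the first a chemokine and the others interferon-induced genes.

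Over the 23 genes of the interferon list, the injury effect in EtOH rats gave 1 higher and 11 lower with a median of -0.63. In MP rats, where the S-EtOH arrays do not enter, it gave 14 higher and 0 lower with a median of 0.79, and 16 of the 23 differed between the medications, all with the larger effect in MP rats. Over both medications 8 rose (34.8%, against 17.7% of all genes) and 4 fell (17.4%, against 25.4%). These counts were 9 and 1 without S-EtOH rat 1, and 4 and 3 without SCI-MP rat 1. The list's median per rat was 1.25 and 0.82 in S-EtOH, -0.28 and -0.06 in S-MP, 0.40 and 0.49 in SCI-EtOH, and 0.81 and 0.62 in SCI-MP. Both S-EtOH rats were above both S-MP rats in 22 of the 23 genes, and 12 of the 64 genes called lower with MP in sham rats were of this list. The S-EtOH rats of 12 h also stood above the 14 S-EtOH rats of other times in several of them, since those 14 ranged from -1.75 to 1.65 in Rsad2, from -0.33 to 1.37 in Mx1, from -0.40 to 0.64 in Herc6 and from -0.36 to 1.44 in Cxcl13. In Cxcl10 they ranged from -1.05 to 2.43, so that S-EtOH rat 2 of 12 h was within them. The Mx1 values at 12 h were 2.52 and 1.95 in S-EtOH and 0.37 and 0.25 in S-MP. A state of these 2 S-EtOH rats and an effect of MP in sham rats cannot be told apart here.

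**Figure D4:**
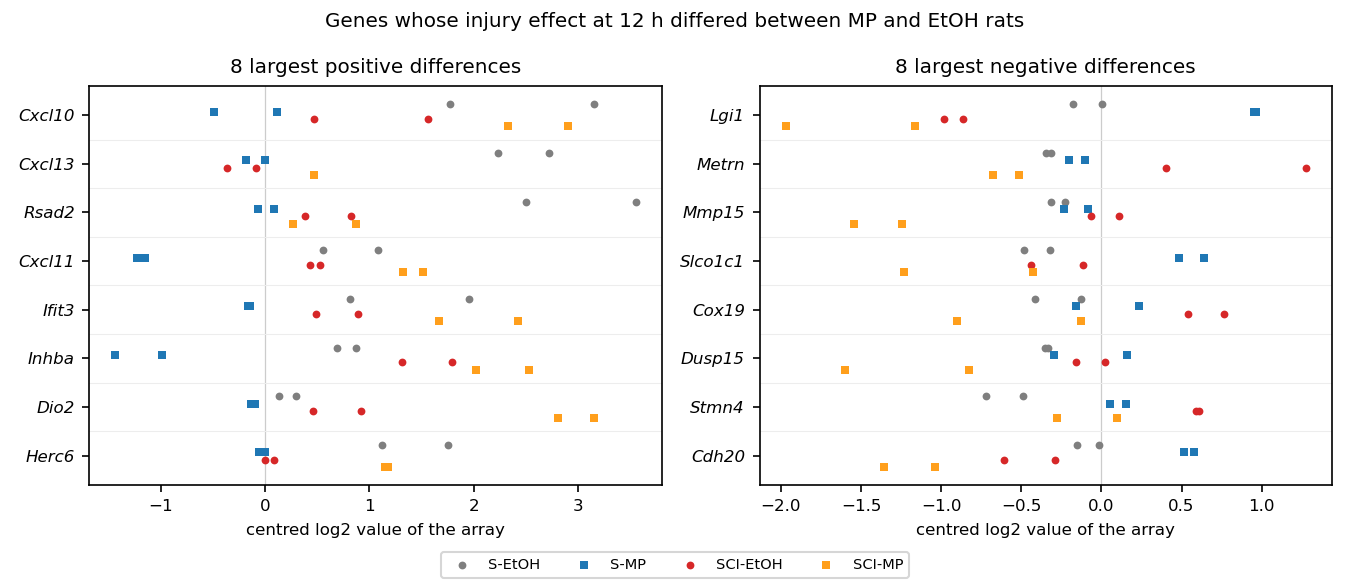
Log2 values in each of the 8 rats of the genes with the largest difference of the injury effect between medications (MP minus EtOH) at 12 h, 1 point per rat. In Rsad2 the S-EtOH rats stand apart at 3.55 and 2.50, and in Dio2 the SCI-MP rats at 3.16 and 2.81.

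Some genes outside the interferon list differed mainly in the injured rats. Dio2, the enzyme that activates thyroid hormone, was at 0.29 and 0.14 in S-EtOH, -0.14 and -0.093 in S-MP, 0.92 and 0.46 in SCI-EtOH, and 3.16 and 2.81 in SCI-MP. Its injury effect was 0.47 in EtOH rats and 3.10 in MP rats, a difference of 2.62 ± 0.34 (SE; adjusted p = 3.3e-05), and no SCI-MP rat of another time was above 1.98. Slc6a14, an amino acid transporter, was likewise high in the SCI-MP rats, with -0.15 and -0.048 in S-EtOH, -0.076 and -0.015 in S-MP, 0.55 and 0.18 in SCI-EtOH, and 1.54 and 2.15 in SCI-MP. The difference there was 1.42 ± 0.19 (SE; adjusted p = 8.5e-05). Inhba, a subunit of activin, combined both patterns with 0.69 and 0.87 in S-EtOH, -0.99 and -1.43 in S-MP, 1.79 and 1.31 in SCI-EtOH, and 2.02 and 2.53 in SCI-MP, and differed by 2.71 ± 0.44 (SE; adjusted p = 0.00038). Hspd1, the mitochondrial chaperonin, was low only in the SCI-EtOH rats, at 0.22 and 0.27 in S-EtOH, 0.14 and 0.17 in S-MP, -0.53 and -0.96 in SCI-EtOH, and 0.16 and 0.32 in SCI-MP, and differed by 1.08 ± 0.28 (SE; adjusted p = 0.017). In its list of 22 heat shock proteins and chaperonins, injury gave 2 higher and 9 lower in EtOH rats and 6 higher and 0 lower in MP rats, and 8 differed between the medications, each higher with MP. Ribosome biogenesis factors gave 2 higher of 16 in EtOH rats and 13 in MP rats, with 7 differing, among them Ddx21 at 0.15 and 1.49. Reactive astrocyte genes had a median of MP minus EtOH of -0.65 in sham and 0.38 in injured rats, and both S-EtOH rats were above both S-MP rats in 19 of 22. They gave 7 higher and 1 lower in EtOH rats and 18 higher in MP rats, with 11 of 22 differing, among them the pattern-recognition gene Ptx3 at 0.16 and 2.67. Neutrophil markers gave 14 higher in EtOH rats and 16 in MP rats, of 23.

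The largest negative differences were smaller than the positive ones. Metrn, a secreted factor of neurogenesis, was at -0.35 and -0.31 in S-EtOH, -0.20 and -0.1 in S-MP, 0.40 and 1.28 in SCI-EtOH, and -0.51 and -0.67 in SCI-MP, with an effect of 1.17 in EtOH rats and -0.44 in MP rats and a difference of -1.61 ± 0.26 (SE; adjusted p = 0.00038). Stmn4, a microtubule regulator of neurons, had 1.21 and -0.19, a difference of -1.40 ± 0.21 (SE; adjusted p = 0.00022). Lgi1, a secreted synaptic protein, fell in both medications, by 0.83 in EtOH rats and 2.52 in MP rats, and differed by -1.69. Mmp15, Slco1c1, Cox19, Dusp15 and Cdh20 differed by -1.53, -1.52, -1.48, -1.42 and -1.38. Without SCI-MP rat 2 the calls of Lgi1, Mmp15, Cox19, Dusp15 and Slco1c1 were lost, and that of Slco1c1 was lost without each other 12 h rat except SCI-MP rat 1.

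The injury effect at 12 h was set beside that at the other times, each with its own 8 arrays. Calls numbered 1262 at 2 h (8.81%), 3917 at 4 h (27.3%), 5262 at 6 h (36.7%), 3883 at 8 h (27.1%), 6170 at 24 h (43.1%) and 6304 at 48 h (44%). The effect at 12 h differed from that at 8 h in 6 genes (0.0419%). They were Dio2 (1.34), Slc6a14 (1.03), Olfm4 (0.83), Upk2 (0.48), Neto1 (-0.84) and Sgtb (-0.92), as 12 h minus 8 h, and 2012 genes had an unadjusted p under 0.05 in the same limma fit. Dio2 gave injury effects of -0.074 at 2 h, 0.056 at 4 h, 0.40 at 6 h, 0.45 at 8 h, 1.78 at 12 h, 0.37 at 24 h and -0.065 at 48 h, and Slc6a14 gave 0.016 at 2 h, 0.076 at 4 h, 0.22 at 6 h, 0.15 at 8 h, 1.17 at 12 h, 0.12 at 24 h and 0.0018 at 48 h. Both had their largest effect at 12 h. The count of 6 was 105 without SCI-EtOH rat 1 and 1 to 3 without S-EtOH rat 1, S-EtOH rat 2, S-MP rat 1, S-MP rat 2 or SCI-MP rat 1, and Slc6a14 kept its call without each rat in turn. After quantile normalization 0 genes were called and all 6 lost the call, Dio2 and Slc6a14 included, although 1323 had an unadjusted p under 0.05 in limma. A fit to the arrays of 8 h and 12 h alone called 179 genes, with 22 higher and 157 lower, and array weights gave 43, with 8 higher and 35 lower, and the 6 kept their calls in both.

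From 12 h to 24 h the effect changed in 947 genes (6.61%), with 669 higher (4.67%) and 278 lower (1.94%) at 24 h. After quantile normalization between arrays 205 were called, with 80 higher and 125 lower, so that the excess of gains depended on the scaling, and without S-EtOH rat 2, S-MP rat 2 or SCI-MP rat 1 the count was 522, 523 or 407. Of the genes lower at 12 h, 265 moved back up by 24 h and 54 fell further, and of the genes higher at 12 h, 91 rose further and 86 came down. These genes were picked on the same 12 h arrays that enter the difference, which by itself favours a move back. The split therefore describes them and tests nothing. The larger gains were Slc6a20a (2.07), Gpnmb (1.71), a gene of lipid-laden macrophages, Il11 (1.66), and the chemokines Ccl12 (1.58) and Ccl7 (1.56). Slc6a20a, a proline transporter, had effects of 0.22 at 2 h, 0.11 at 4 h, -1.49 at 6 h, -2.27 at 8 h, -2.08 at 12 h, -0.012 at 24 h and 0.89 at 48 h, with 24 h close to 0. Slc6a20a and Gpnmb lost the call of this difference after quantile normalization, and Slc6a20a also in a fit to the arrays of 12 h and 24 h alone. The larger drops were the vascular transporters Slco1a4 (-1.87) and Slco1c1 (-1.58), the pericyte gene Rgs5 (-1.51) and the microglial receptors P2ry12 (-1.37) and P2ry13 (-1.39). P2ry12 was at 0.083 at 12 h, where it was not called, and at -1.29 at 24 h. Of 23 proteasome subunits 14 were higher at 24 h than at 12 h, as were 9 of 26 glycolysis genes, 8 of 22 heat shock genes and 5 of 17 macrophage markers, and 5 of 19 myelin genes, 4 of 15 microglia markers and 4 of 18 endothelial markers were lower. The proteasome median went from -0.22 to 0.32.

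Against the mean of the other 6 times from 2 h to 48 h, the effect at 12 h differed in 370 genes (2.58%), with 211 higher (1.47%) and 159 lower (1.11%). After quantile normalization 95 were called, with 66 higher and 29 lower. The count was 632 without SCI-EtOH rat 1 and 124 to 239 without S-EtOH rat 1, S-EtOH rat 2, S-MP rat 1, S-MP rat 2, SCI-MP rat 1 or SCI-MP rat 2. The largest were Cxcr2 (2.23), Il1r2 (2.18), Oas1k (1.85), Pi15 (1.80), Clec4d (1.65), Dio2 (1.60), Nos2 (1.56) and S100a9 (1.51). Of these, Pi15, Clec4d, Nos2 and S100a9 lost the call after quantile normalization. Cxcr2 had effects of 0.21 at 2 h, 0.94 at 4 h, 0.88 at 6 h, 2.86 at 8 h, 3.85 at 12 h, 3.24 at 24 h and 1.53 at 48 h, and S100a9 of 0.23 at 2 h, 0.98 at 4 h, 1.18 at 6 h, 2.42 at 8 h, 2.97 at 12 h, 2.46 at 24 h and 1.52 at 48 h. The estimates of both were largest at 12 h, with that limit on S100a9, but neither gene was called for 12 h minus 8 h. Oas1k, of the oligoadenylate synthetase family, was at -0.22 and -0.22 in S-EtOH, -0.44 and -0.51 in S-MP, 2.43 and 2.04 in SCI-EtOH, and 2.88 and 2.33 in SCI-MP at 12 h, with injury effects of 2.45 in EtOH rats and 3.08 in MP rats, whose difference was not called. Of 23 neutrophil markers 7 were higher at 12 h than over the other times, and of 23 glucocorticoid-induced genes 8 were. The lower ones included Slc6a20a (-1.66), Rsad2 (-1.62), the vesicle gene Cadps (-0.86) and the inositol transporter Slc5a3 (-0.94), and of these 4 Rsad2 alone kept the call after quantile normalization. The Rsad2 call was lost without S-EtOH rat 1. At 12 h only the S-EtOH rats were high in Rsad2, and its injury effect was negative in EtOH rats and not in MP rats. The list medians kept their direction from 4 h to 48 h for neurons and neutrophils, with neuron structural genes at -0.98, -1.62 and -1.92 at 8, 12 and 24 h, and neutrophil markers at 0.79, 0.89 and 1.16. Erythrocyte and platelet markers were past their highest median by then, with 1.64 at 4 h, 1.10 at 12 h and 0.43 at 24 h.

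**Figure D5:**
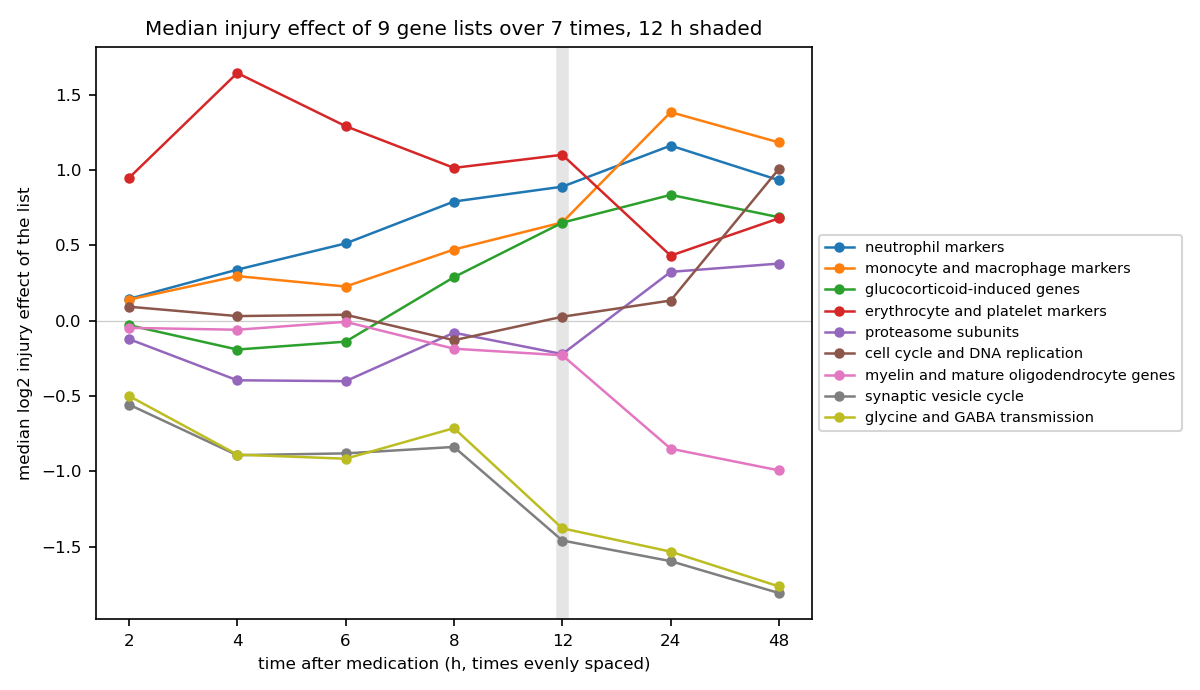
Median injury effect (log2, both medications) of 9 gene lists at the 7 times from 2 h to 48 h after medication, with 12 h shaded. The glucocorticoid-induced list goes from -0.14 at 6 h to 0.65 at 12 h, and the proteasome list from -0.22 at 12 h to 0.32 at 24 h.

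With 2 rats per group, the variance came mainly from the 30 pairs of the whole series, and p-values measure the spread between these rats under that shared estimate. When the 12 h arrays alone were tested by a plain analysis of variance without moderated variances, 3403 genes were called for injury and 0 for the difference between medications, where 2736 had an unadjusted p under 0.05.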

How the data were processed

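Spinal cord RNA from each of 60 rats was hybridized to its own Rat Gene 1.0 ST array, and the 8 rats of 12 h were described here by the groups in their labels. The authors deposited log2 values made with RMA (robust multi-array average) and then scaled by chip and by gene in GeneSpring GX 11. The reference for this centring was not stated in the labels or methods. Genes were named from the platform annotation, and 15067 of the 15097 probe sets kept were matched by gene ID to current symbols. Probe sets with several symbols (323) or none (11922) were left out, and those of 1 gene were averaged. In 6 of 499 genes with several probe sets, these were called in opposite directions.

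All 60 arrays entered 1 model of 30 means, 1 for each group at each time, fitted with moderated variances and 30 residual degrees of freedom (limma 3.58.1, R 4.3.3). Contrasts were adjusted by Benjamini-Hochberg over 14324 genes, with 0.05 as the threshold. A fit to all arrays was preferred because 2 rats per group leave 12 h alone few degrees of freedom. The scripts were tested on simulated data.

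Gene lists (63, with 1084 of 1245 genes measured) were described by counts and medians. The rule named the 15 largest rises and 15 largest falls without overlap of the groups, up to 6 called members per list and direction, and the 8 largest differences between medications or times in each direction. Members and lists were chosen with earlier results of these data known. Alternatives were the arrays fitted, the duplicate number as a block, quantile or median scaling, every or the median probe set, array weights, robust variances, a filter on noisy probe sets, a plain analysis of variance and leaving out each rat.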

Additional observations from a re-analysis of the deposited data

Results flagged for a closer look

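A gap within a group of 4 rats was found in 2 of 60 groups tested, where chance gives about 1 in 20. Scn1a stood at 0.61 in S-MP rat 1 against 0.18 to 0.21 in the other sham rats, and Vsnl1 at 0.55 in S-MP rat 2. Without the rat concerned, each gene kept a called fall after injury.

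Genes were also listed where the injury effect differed between medications or times by the limma test of the difference itself, the largest in each direction. With MP the injury effect at 12 h was higher than with EtOH in Cxcl10 (4.25), Cxcl13 (3.26), Rsad2 (2.99), Cxcl11 (2.95), Ifit3 (2.89), Inhba (2.71), Dio2 (2.62) and Herc6 (2.59). It was lower with MP in Lgi1 (-1.69), Metrn (-1.61), Mmp15 (-1.53), Slco1c1 (-1.52), Cox19 (-1.48), Dusp15 (-1.42), Stmn4 (-1.40) and Cdh20 (-1.38). From 8 h to 12 h the effect went up in Dio2 (1.34), Slc6a14 (1.03), Olfm4 (0.83) and Upk2 (0.48) and down in Sgtb (-0.92) and Neto1 (-0.84).

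From 12 h to 24 h it went up in Slc6a20a (2.07), Gpnmb (1.71), Il11 (1.66), Ccl12 (1.58), Ccl7 (1.56), Slc2a12 (1.54), Cdo1 (1.47) and Vgf (1.46). It went down over the same interval in Slco1a4 (-1.87), Slco1c1 (-1.58), Itm2a (-1.58), Rgs5 (-1.51), Grm3 (-1.50), Dio2 (-1.42), P2ry13 (-1.39) and P2ry12 (-1.37). At 12 h it was higher than over the other 6 times in Cxcr2 (2.23), Il1r2 (2.18), Oas1k (1.85), Pi15 (1.80), Clec4d (1.65), Dio2 (1.60), Nos2 (1.56) and S100a9 (1.51). It was lower than over those times in Slc6a20a (-1.66), Rsad2 (-1.62), Slc5a3 (-0.94), Ttc9c (-0.90), Ifit2 (-0.88), Cadps (-0.86), Samd9l (-0.86) and Cxcl13 (-0.85). Without 1 or more of the 12 h rats, Rsad2, Lgi1, Mmp15, Cox19, Dusp15 and Slco1c1 lost the call between medications, all but Slc6a14 lost that from 8 h, and Slc6a20a lost that to 24 h without SCI-MP rat 1. Against the other times, Cadps, Clec4d, Cxcl13, Ifit2, Pi15, Rsad2, Samd9l, Slc5a3, Slc6a20a and Ttc9c did.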

How the results depend on the processing

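The injury effect over both medications (6173 genes called) was recomputed under 19 other settings, and 18 of them gave 4511 to 6468 genes, the lowest with the 12 h arrays alone and additive terms. One of the 18, the filter on noisy probe sets, left out none of the probe sets tested and so could not move a count. A plain analysis of variance of the 12 h arrays, with the contrasts used here and not the one-way test among 4 groups and Tukey comparisons of the methods, gave 3403. It called 1750 genes in EtOH rats, 2841 in MP rats and 0 for MP minus EtOH, where it has few degrees of freedom. Leaving out each 12 h rat in turn gave 5188 to 6468 genes for both medications, 2613 to 4596 in EtOH rats, 3612 to 4971 in MP rats, 403 to 1534 for MP minus EtOH (1103), 1 to 105 for 12 h minus 8 h (6), 407 to 1206 for 24 h minus 12 h (947) and 124 to 632 for 12 h minus the other 6 times (370).

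With a fit to the arrays of the compared times alone, MP minus EtOH gave 686 genes (344 higher and 342 lower), 12 h minus 8 h gave 179 (22 and 157) and 24 h minus 12 h gave 545. Quantile normalization gave 0 genes for 12 h minus 8 h, where limma had 1323 at an unadjusted p under 0.05, 205 for 24 h minus 12 h (39% higher against 70.6%) and 95 for 12 h minus the other times (69.5% higher against 57%). Array weights gave 43 genes for 12 h minus 8 h (8 higher and 35 lower) and 402 for 12 h minus the other times (45.3% higher), and testing every probe set gave 3 for 12 h minus 8 h. The cause of these shifts was not tested. Among the named genes, the injury effect of Dusp15 turned from -0.43 to 0.028 under quantile normalization (adjusted p = 0.90), and no other named value of the effect over both medications, of MP minus EtOH or of the differences between times turned. Named effects within EtOH or MP rats alone were not recomputed gene by gene, nor was any gene with every probe set tested. Quantile normalization also took the calls of Dio2, Slc2a12 and Vgf from 24 h minus 12 h, and of Cadps, Cxcl13, Slc5a3 and Slc6a20a from 12 h minus the other times.

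No clear pairing of the rats by duplicate number was seen, as the differences between duplicates correlated between groups from -0.094 to 0.22. Such correlations over genes cannot exclude a pairing. With the number as a replicate block, the 7 counts were 6074, 4396, 4818, 1017, 2, 823 and 248, the 2 being for 12 h minus 8 h. Centred values hold no signal over background, and no filter on dim probes was therefore run.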
